A study of Mus musculus with 9 samples.

Results

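The genes described here are 10 cytokines and chemokines that B cells are known to make: Il6, Il10, Tnf, Lta, Ltb, Ccl3, Ccl4, Ccl22, Ccl17 and Cxcl10. They were taken by gene symbol from a table of 17596 genes measured by RNA sequencing in 9 libraries of mouse splenic primary B cells, and each of the 10 had a row. Expression was given as FPKM, fragments scaled to transcript length and to the mapped fragments of the library. The control mice were Mb1Cre, which carry the Cre recombinase under the B-lineage gene Mb1 (Cd79a), and the others were Mct1f/fMb1Cre, which carry in addition 2 floxed copies of Mct1 (Slc16a1), the gene of a transporter of lactate and pyruvate. Both genotypes therefore carried Cre, the mice were 6 to 8 weeks old, and the floxed allele was made on the C57BL/6J background with the sites placed around exon 1 and in intron 3. B cells were sequenced on day 0, without stimulation (2 libraries of each genotype), and after 3 days of culture with LPS at 10 μg/mL plus IL-4 at 50 ng/mL (2 Mb1Cre and 3 Mct1f/fMb1Cre libraries). The labels call the genotypes WT and cKO and do not say which libraries came from which mouse, so p-values measure the spread between these libraries, which may be technical.

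Cytokines are secreted or membrane-bound proteins through which immune cells signal to each other, and chemokines are the subset that attract cells. B cells respond to LPS through Toll-like receptor 4, which turns on cytokine genes through NF-κB and AP-1, while IL-4 signals through STAT6. Interleukin-6 drives plasma cell and T helper differentiation, interleukin-10 restrains inflammation and marks regulatory B cells, TNF and the lymphotoxins organise lymphoid tissue, and the chemokines CCL3, CCL4, CCL17, CCL22 and CXCL10 recruit T cells and other leukocytes. Many of these transcripts are short-lived, with AU-rich elements (repeats of ATTTA in the DNA letters) in the 3′ untranslated region that are bound by decay factors such as tristetraprolin (Zfp36).

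In the GRCm38 annotation, Ltb (chr17:35194439-35196320), Tnf (chr17:35199381-35202007) and Lta (chr17:35203165-35205351) lie side by side, with 3060 bases between Ltb and Tnf and 1157 between Tnf and Lta. Ccl3 (chr11:83647844-83649355, minus strand) and Ccl4 (chr11:83662584-83664683, plus strand) are neighbours 13.2 kb apart, and Ccl22 (gene ID 20299, chr8:94745590-94751699) and Ccl17 (chr8:94810453-94812036) are 58.8 kb apart with Cx3cl1 between them. Il6 (gene ID 16193, chr5:30013114-30019981), Il10 (gene ID 16153, chr1:131019845-131024974) and Cxcl10 (chr5:92346638-92348889) lie elsewhere. The RefSeq record of Ccl4 starts at 83648624 and so overlaps Ccl3, and whether reads were counted by strand is not given in the sources used here, so the split of reads between Ccl3 and Ccl4 is uncertain.

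Upstream sequence of 250 bases before a RefSeq start site was at hand for 8 of the 10 genes, all but Il10 and Ccl4. Both strands were searched for the κB motif, for the STAT6 motif (TTC, then 4 free bases, then GAA), for the AP-1 motif TGANTCA and for TATAAA. Of the 32851 windows in the RefSeq table, 3.90% held the κB motif, 5.85% the STAT6 motif, 6.75% the AP-1 motif and 12.4% TATAAA. A κB motif was found before Il6, Ltb and Cxcl10 (2 in Cxcl10), an AP-1 motif before Il6 and Cxcl10, a STAT6 motif in the windows of Lta and Ccl17, and TATAAA in those of Tnf and Lta. The RefSeq spans of Lta (chr17:35203165-35205578) and Ccl17 (chr8:94809380-94812038) reach further upstream. They take in the motifs of these 2 windows, which therefore lie inside the RefSeq genes. The windows of Ccl3 and Ccl22 held none of the 4 motifs, which says only that these letters are not in the window. The windows of 3 genes are shown because their genes differed on day 3: Il6 and Ccl22 were lower in Mct1f/fMb1Cre, and Tnf changed little. They are the plus strand of chr5:30012864-30013113 for Il6 and of chr8:94745434-94745589 for Ccl22, and the minus strand of chr17:35202008-35202257 for Tnf (RefSeq, GRCm38.p6, 5′ to 3′). Capitals mark the motifs found, and the Ccl22 window stops where the GENCODE gene begins.
Il6 promoter: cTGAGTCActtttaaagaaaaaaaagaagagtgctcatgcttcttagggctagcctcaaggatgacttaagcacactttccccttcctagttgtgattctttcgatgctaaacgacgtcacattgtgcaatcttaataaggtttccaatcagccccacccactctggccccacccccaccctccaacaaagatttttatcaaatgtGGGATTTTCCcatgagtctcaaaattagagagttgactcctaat
Ccl22 promoter: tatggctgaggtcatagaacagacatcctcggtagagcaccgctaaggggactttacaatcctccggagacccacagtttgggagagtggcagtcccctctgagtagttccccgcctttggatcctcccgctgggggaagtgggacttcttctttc
Tnf promoter: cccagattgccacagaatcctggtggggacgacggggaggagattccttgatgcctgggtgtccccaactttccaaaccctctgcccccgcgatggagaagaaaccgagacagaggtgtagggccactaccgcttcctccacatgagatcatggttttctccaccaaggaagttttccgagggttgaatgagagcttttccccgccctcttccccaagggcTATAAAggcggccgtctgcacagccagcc

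The 3′ UTRs of the same genes differed in their AU-rich elements. Tnf held 8 copies of ATTTA and 2 of the longer ATTTATTTA, a form found in 5.59% of 20605 coding genes, and Lta held 3 and 1. Il6 and Il10 held 6 copies of ATTTA each, Ccl3 held 5, Ccl4, Ccl22 and Cxcl10 held 2 each, and Ltb and Ccl17 held none. At least 3 copies of ATTTA were found in 32.5% of the coding genes. No member besides Tnf and Lta held the longer form. These counts depend on the UTR length, which ran from 156 bases in Ltb to 1813 in Ccl22. The 30 bases with the most copies are shown for Tnf and Il6, the flat and the lowered cytokine on day 3, with each ATTTA in capitals.
Tnf 3′ UTR site: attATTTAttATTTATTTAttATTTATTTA
Il6 3′ UTR site: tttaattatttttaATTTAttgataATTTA

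The libraries summed to 477079 to 491459 FPKM on day 0 and to 547355 to 563586 on day 3, and the read depth behind them is unknown. Slc16a1, the targeted gene, was 22.58 and 22.95 FPKM in Mb1Cre on day 3 against 10.82, 9.81 and 9.50 in Mct1f/fMb1Cre, or 44.1%, and on day 0 it was 4.33 and 3.80 against 3.71 and 4.06. These FPKM are for the whole gene, exons outside the floxed stretch included. The summed level of 6 B cell markers was 4183 to 4612 FPKM on day 0 and 2182 to 2271 on day 3. Myeloid markers (10 genes, led by Lyz2) summed to 1025 to 1838 FPKM on day 0 and 15.9 to 26.6 on day 3, T cell markers (5 genes) to 26.7 to 30.1 and 0.77 to 1.37, and erythroid markers (4 genes) to 84.3 to 154 and 0.03 to 0.52. NK cell markers (4 genes) summed to 67.0 to 82.8 and 85.3 to 98.4, and basophil or mast cell markers (4 genes) to 2.29 to 5.52 and 0.24 to 0.38. The NK cell sum rose through Gzma alone, from a mean of 38.9 to 90.9 FPKM in Mb1Cre and from 37.5 to 82.5 in Mct1f/fMb1Cre. The other 3 NK cell markers were called lower on day 3 in both genotypes, beside 33.0% of all genes in Mb1Cre and 33.2% in Mct1f/fMb1Cre. The Y-linked gene Ddx3y was at most 0.24 FPKM in 3 of the 4 day 0 libraries, 31.13 in Mct1f/fMb1Cre replicate 1 of day 0 and 14.7 to 16.9 on day 3, so that sex and day cannot be told apart in Mb1Cre.

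Before stimulation, the lymphotoxin and TNF genes led and the interleukins were near 0. In Mb1Cre on day 0 the order of mean FPKM was Ltb 447, Lta 31.1, Tnf 13.2 and Ccl3 5.28, followed by Cxcl10 2.63, Ccl22 2.50 and Ccl4 2.20, whose ranges overlapped from one to the next, and then by Ccl17 0.295, Il10 0.110 and Il6 0.050. On day 3 the order in Mb1Cre was Ltb 45.3, Ccl22 36.4, Lta 14.4, Il6 12.1, Tnf 11.9, Cxcl10 5.86, Il10 4.72, Ccl3 3.39, Ccl4 1.40 and Ccl17 0.215, with only the ranges of Il6 and Tnf overlapping between neighbours. In Mct1f/fMb1Cre on day 3 Ltb again led at 51.3 FPKM, but Ccl22 at 11.7 overlapped Tnf at 11.7, which in turn overlapped Lta at 11.8, Il6 at 3.82 overlapped Ccl3 at 3.84, and Ccl4 at 2.24 overlapped Il10 at 1.91. FPKM is per length, so these levels can be set beside each other, and no test was made between genes.

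**Figure D1:**
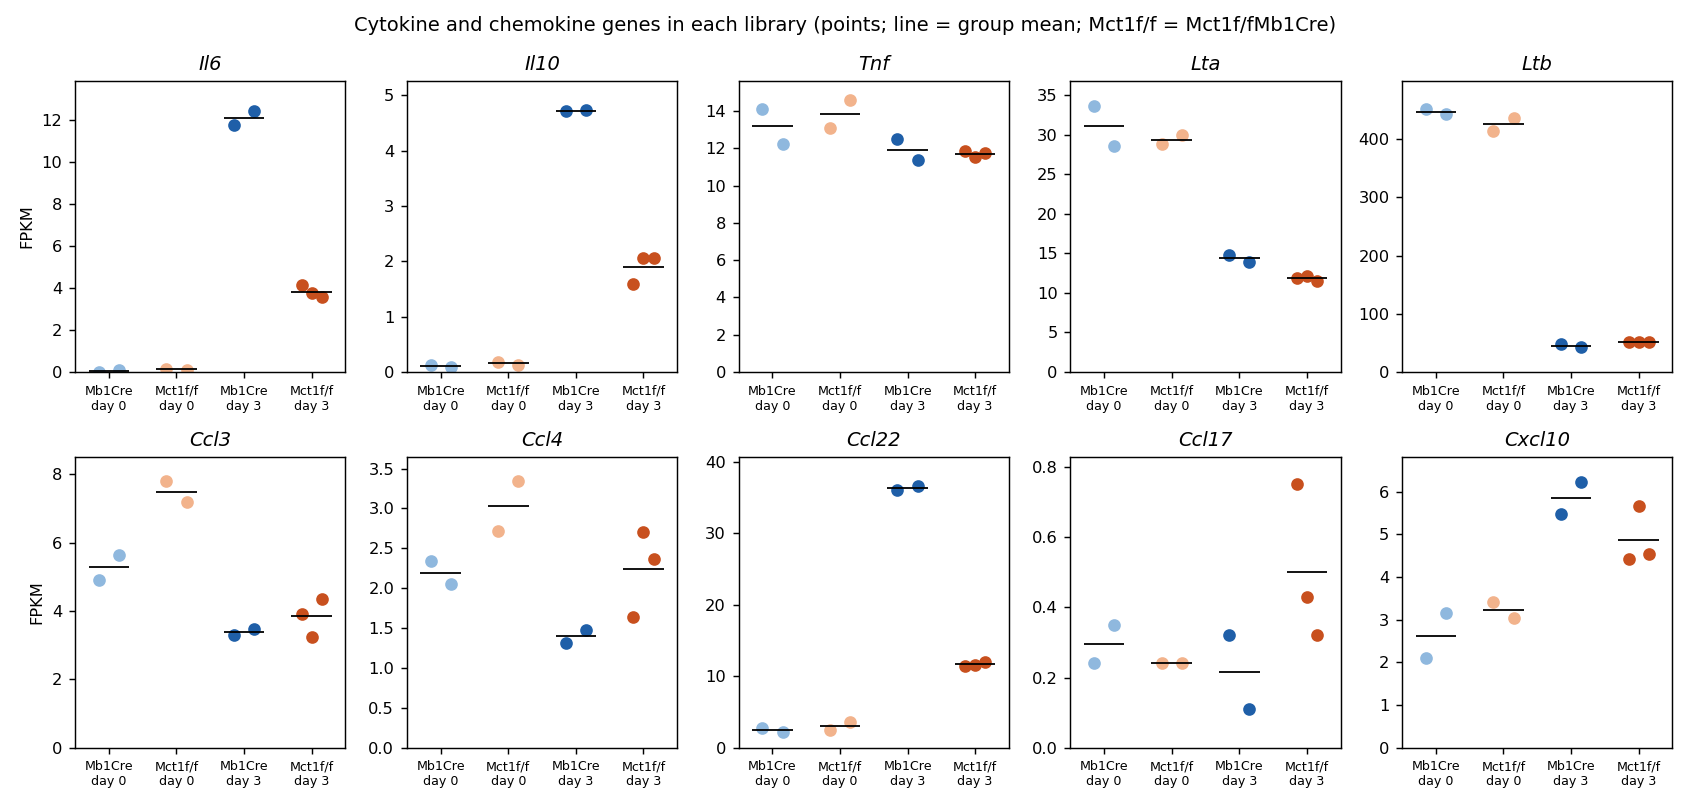
FPKM of each of the 10 genes (y axis, linear from 0, a scale for each gene) in the 9 libraries (points), by genotype and day (x axis), with the group mean as a line; Mct1f/f stands for Mct1f/fMb1Cre. Il6, Il10 and Ccl22 are low on day 0, highest in both Mb1Cre libraries of day 3 and between these levels in all 3 Mct1f/fMb1Cre libraries of day 3, while Tnf runs from 11.36 to 14.57 FPKM throughout.

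The first question was how these genes differed between day 0 and day 3 of culture with LPS and IL-4. No library came from cells cultured without LPS and IL-4, so the stimuli and the time in culture cannot be told apart. Stimulation stands here for day 3 against day 0. In Mb1Cre B cells Il6, Ccl22, Il10 and Cxcl10 rose and Ltb, Lta and Ccl3 fell, while Tnf and Ccl4 did not pass. A gene was called where limma's test on log2(FPKM + 1) gave a Benjamini-Hochberg adjusted p under 0.05 over all genes tested and the difference was over 0.5 on the log2 scale. Ccl17 averaged 0.333 FPKM, under the minimum mean of 1 FPKM, so 9 genes were tested. Of these, 4 were called higher and 3 lower in Mb1Cre, where 24.8% and 33.0% of all 10823 genes tested were called higher and lower. In Mct1f/fMb1Cre 3 were called higher (Il6, Il10 and Ccl22) and 3 lower (Ltb, Lta and Ccl3), beside 23.4% and 33.2% of all genes. The median difference of the 9 genes was -0.13 in Mb1Cre and -0.22 in Mct1f/fMb1Cre, beside -0.12 and -0.14 over all genes. With 57.8% and 56.5% of all genes called, the counts by themselves do not set these genes apart. Of all calls, 42.9% were higher in Mb1Cre and 41.4% in Mct1f/fMb1Cre as deposited, which became 31.8% and 31.6% with libraries scaled to a common total, 55.7% and 55.2% with median-of-ratios scaling and 51.6% and 52.2% with quantile normalization. The median of all genes moved with these scalings between -0.31 and 0.07 in Mb1Cre and between -0.30 and 0.06 in Mct1f/fMb1Cre.

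The second question was whether loss of Mct1 in B cells changed these genes. On day 3 Ccl22, Il6 and Il10 were lower in Mct1f/fMb1Cre, at 32.1%, 31.6% and 40.4% of the Mb1Cre mean FPKM, and no member was called higher. Beside these 3 of 9, 1.53% of all genes were called lower and 0.887% higher. The members were chosen with earlier results of these data known, so the shares are given as description and do not test the set. The median difference of the 9 genes was -0.23 on the log2 scale, beside -0.01 over all genes. On day 0 limma called 0 of 9 genes, where it called 0.240% of all genes higher and 0.0370% lower. At an unadjusted p under 0.05 there were 2 genes on day 0, Ccl3 and Ccl4, and no other tool was run. The genotype difference on day 3 less that on day 0, tested as an interaction, was called for the same 3 genes, each time negative, beside 1.02% of all genes called positive and 2.22% negative. In whole-population RNA, fewer producing cells and less RNA per producing cell cannot be told apart.

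**Figure D2:**
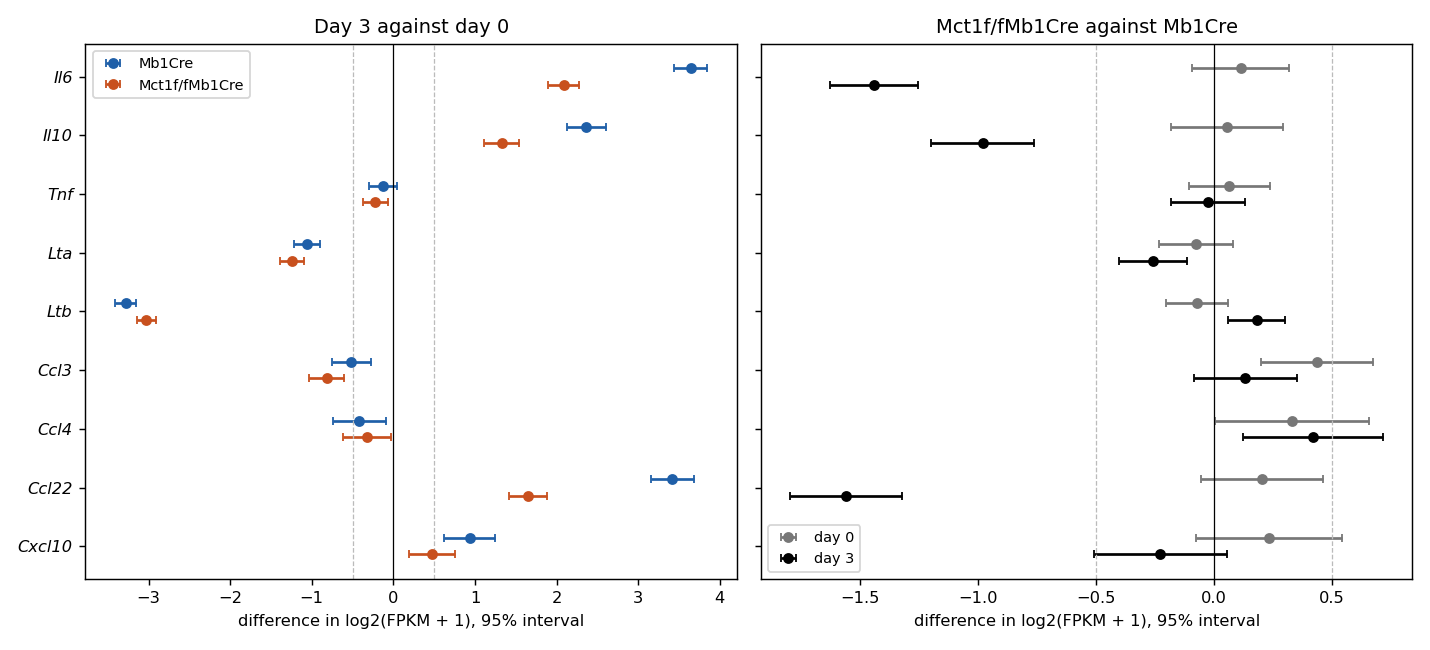
Differences in log2(FPKM + 1) with 95% intervals (x axes) for the 9 tested genes (rows), left for day 3 against day 0 in each genotype and right for Mct1f/fMb1Cre against Mb1Cre on each day; dashed lines mark 0.5 in either direction. The day 3 intervals of Il6, Il10 and Ccl22 lie wholly below -0.5 on the right, while every day 0 interval except those of Ccl3 and Ccl4 reaches across 0.

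Il6, which encodes the pleiotropic cytokine interleukin-6, was nearly silent in resting cells. It was listed at 0 and 0.10 FPKM in Mb1Cre and at 0.16 and 0.11 in Mct1f/fMb1Cre on day 0. On day 3 it was 11.76 and 12.45 FPKM in Mb1Cre and 4.13, 3.76 and 3.58 in Mct1f/fMb1Cre. All stimulated libraries stood above all resting ones, and the genotypes did not overlap on day 3. The rise was 3.64 on the log2(FPKM + 1) scale in Mb1Cre (limma, SE 0.0928, adjusted p = 3.34e-11) and 2.09 in Mct1f/fMb1Cre (SE 0.0847). The day 3 difference between genotypes was -1.44 (SE 0.0847, 95% interval -1.63 to -1.26, adjusted p = 5.23e-06), which ranked 11 of 10823 genes by p-value. The interaction was -1.56 (SE 0.126, adjusted p = 1.57e-04). The day 0 difference was 0.11, with an interval of -0.09 to 0.32.

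Il10, the gene of the anti-inflammatory cytokine interleukin-10, showed the same order of groups at a lower level. On day 0 it was 0.13 and 0.09 FPKM in Mb1Cre and 0.18 and 0.13 in Mct1f/fMb1Cre. With stimulation it reached 4.71 and 4.73 FPKM in Mb1Cre against 1.59, 2.07 and 2.06 in Mct1f/fMb1Cre, without overlap. It rose by 2.37 (SE 0.107) in Mb1Cre and by 1.33 (SE 0.0981) in Mct1f/fMb1Cre on the log2(FPKM + 1) scale. The genotype difference on day 3 was -0.98 (limma, SE 0.0981, adjusted p = 1.29e-04), and the interaction was -1.04 (SE 0.146, adjusted p = 0.00274). Since Il10 is low, the pseudocount of 1 FPKM bears on its size: with a pseudocount of 5 the day 3 difference was -0.49 and fell short of the 0.5 limit.

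Of the TNF family, Tnf encodes the inflammatory cytokine TNF and was almost level. Its FPKM was 14.12 and 12.23 in Mb1Cre and 13.07 and 14.57 in Mct1f/fMb1Cre on day 0. After stimulation it was 12.51 and 11.36 in Mb1Cre and 11.87, 11.54 and 11.75 in Mct1f/fMb1Cre. The genotypes overlapped on both days, and so did the days in Mb1Cre, while in Mct1f/fMb1Cre the 3 day 3 libraries lay just below both day 0 libraries. The day 3 difference between genotypes was -0.02 (limma, adjusted p = 0.882), and its interval of -0.18 to 0.13 leaves room for changes smaller than the 0.5 limit. From day 0 to day 3 the difference was -0.13 in Mb1Cre and -0.22 in Mct1f/fMb1Cre (limma, adjusted p = 0.138 and 0.0134), neither past the 0.5 limit.

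Lta, which encodes lymphotoxin-α, fell with stimulation in both genotypes. It went from 33.58 and 28.52 FPKM to 14.79 and 13.91 in Mb1Cre, and from 28.78 and 29.91 to 11.91, 12.07 and 11.56 in Mct1f/fMb1Cre. The falls were -1.06 (SE 0.0714) and -1.24 (SE 0.0652) on the log2(FPKM + 1) scale. The 3 Mct1f/fMb1Cre libraries of day 3 lay below both Mb1Cre libraries, with a difference of -0.26 (limma, adjusted p = 0.0240), short of the 0.5 limit.

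Ltb, which encodes lymphotoxin-β, the membrane partner of lymphotoxin-α, was the most abundant member on both days and fell the most. It was 451.02 and 442.88 FPKM in Mb1Cre and 414 and 436.5 in Mct1f/fMb1Cre on day 0. By day 3 it was down to 48.36 and 42.15 in Mb1Cre and 52.2, 50.84 and 51 in Mct1f/fMb1Cre. The falls were -3.28 (SE 0.0592) in Mb1Cre and -3.03 (SE 0.0540) in Mct1f/fMb1Cre. On day 3 Mct1f/fMb1Cre was the higher by 0.18 (limma, adjusted p = 0.0460), again under the 0.5 limit. The neighbours Tnf, Lta and Ltb therefore differed in their response to stimulation, with day 3 at 90.6%, 46.2% and 10.1% of the day 0 mean FPKM in Mb1Cre. T cells also make lymphotoxins, and their 5 markers fell from a sum of at least 26.7 FPKM to at most 1.37 over the same days. The part of T cells in the falls of Lta and Ltb was not tested.

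Among the CC chemokines, Ccl22 encodes the ligand of CCR4 that draws in T helper 2 and regulatory T cells. On day 0 it was 2.75 and 2.25 FPKM in Mb1Cre and 2.48 and 3.66 in Mct1f/fMb1Cre, with overlap. It reached 36.06 and 36.66 FPKM in Mb1Cre against 11.48, 11.50 and 12.02 in Mct1f/fMb1Cre on day 3. The replicates of each genotype lay close together on day 3, far apart from the other genotype. The rise was 3.42 (SE 0.117) in Mb1Cre and 1.65 (SE 0.107) in Mct1f/fMb1Cre on the log2(FPKM + 1) scale. The day 3 difference was -1.56 (limma, SE 0.107, 95% interval -1.80 to -1.32, adjusted p = 1.27e-05). On this scale it was the lowest among the 9 tested genes and rank 8 of 10823 counted from the lowest difference. The interaction was -1.77 (SE 0.158, adjusted p = 2.98e-04). By mean FPKM on day 3, Ccl22 was at 32.1% of Mb1Cre and Il6 at 31.6%, so the order of these 2 genes depends on the scale.

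Dendritic cells are a known source of CCL22. From day 0 to day 3, while Ccl22 rose, the summed level of 5 dendritic cell markers fell, but not every marker did. In Mb1Cre Flt3 and Zbtb46 were higher on day 3 by 0.39 and 0.30 on the log2 scale, short of the 0.5 limit. In Mct1f/fMb1Cre they differed by -1.13 and -0.30, the second not called. Itgax, Xcr1 and Siglech fell in both genotypes. The 5 markers summed to 68.1 to 78.6 FPKM on day 0. After stimulation the sum was 23.06 and 23.08 FPKM in Mb1Cre and 10.03, 10.57 and 11.34 in Mct1f/fMb1Cre. Of the 5, Flt3 (17.61 and 17.36 against 6.67, 6.96 and 7.41 FPKM) and Zbtb46 (4.80 and 4.98 against 2.65, 2.87 and 3.18) were called lower in Mct1f/fMb1Cre on day 3. Among all genes 1.53% were called lower and 0.887% higher in this contrast. The other 3, Itgax (0.36 to 0.45), Xcr1 (0.18 to 0.26) and Siglech (0.04 to 0.09), were not called and were under 0.5 FPKM in all 5 day 3 libraries, with differences of 0.04, -0.03 and 0.03. The median difference of the 5 was -0.03. The part of dendritic cells in the Ccl22 result was not tested.

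Ccl17, the other CCR4 ligand and a neighbour of Ccl22, was barely detected. It was 0.24 and 0.35 FPKM in Mb1Cre and 0.24 in both Mct1f/fMb1Cre libraries on day 0. The day 3 values were 0.32 and 0.11 in Mb1Cre and 0.75, 0.43 and 0.32 in Mct1f/fMb1Cre. The genotypes touched at 0.32 FPKM. Fitted with no filter on low values, its day 3 difference was 0.30 (limma, 95% interval -0.0017 to 0.60, adjusted p = 0.248), which was not called.

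Ccl3 and Ccl4 encode MIP-1α and MIP-1β, which attract T cells and monocytes. Ccl3 was 4.91 and 5.65 FPKM in Mb1Cre and 7.80 and 7.18 in Mct1f/fMb1Cre on day 0, so the genotypes did not overlap. On day 3 it was 3.31 and 3.47 in Mb1Cre and 3.92, 3.24 and 4.36 in Mct1f/fMb1Cre, which overlapped. Its fall from day 0 was -0.51 in Mb1Cre (limma, SE 0.108, adjusted p = 9.38e-04), just past the limit of 0.5, and -0.82 (SE 0.0982) in Mct1f/fMb1Cre. Without Mb1Cre day 0 replicate 2 the first became -0.43, and without Mb1Cre day 3 replicate 1 it became -0.49, both short of the limit. The day 0 genotype difference was 0.44 (adjusted p = 0.180).

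Ccl4 was 2.34 and 2.05 FPKM in Mb1Cre and 2.72 and 3.34 in Mct1f/fMb1Cre on day 0. On day 3 it was 1.31 and 1.48 in Mb1Cre and 1.64, 2.70 and 2.37 in Mct1f/fMb1Cre, the latter all above the former. The day 3 difference was 0.42 (limma, SE 0.134, adjusted p = 0.0596), and without Mct1f/fMb1Cre day 3 replicate 1 it was 0.56 and was called (adjusted p = 0.0106). Myeloid cells also make these chemokines, and the myeloid sum on day 0 ran highest, at 1838 FPKM, in Mct1f/fMb1Cre replicate 1, against 1025 to 1221 in the other 3 libraries. On day 3 that sum was 17.6 and 15.9 FPKM in Mb1Cre and 25.6, 23.4 and 26.6 in Mct1f/fMb1Cre, and Lyz2 made up most of it, at a mean of 10.8 FPKM in Mb1Cre and 18.2 in Mct1f/fMb1Cre. Of the 9 myeloid markers tested, Lyz2 and Adgre1 were called higher on day 3 and none lower, beside 0.887% and 1.53% of all genes. S100a8 (-0.32), S100a9 (-0.82) and Mpo (-0.04) had differences of the opposite sign that were not called. The part of myeloid cells in the levels of Ccl3 and Ccl4 was not tested.

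Cxcl10 encodes an interferon-induced chemokine that draws in T cells through CXCR3. It was 2.10 and 3.15 FPKM in Mb1Cre and 3.42 and 3.04 in Mct1f/fMb1Cre on day 0. Stimulated cells held 5.49 and 6.23 in Mb1Cre and 4.43, 5.66 and 4.55 in Mct1f/fMb1Cre. Every day 3 library was above every day 0 library, and the genotypes overlapped on both days. The rise was 0.93 in Mb1Cre (limma, SE 0.140, adjusted p = 7.54e-05) and 0.47 in Mct1f/fMb1Cre (SE 0.128, adjusted p = 0.00504), the latter short of the 0.5 limit. The difference between these rises was -0.46 (adjusted p = 0.158), so the call in 1 genotype does not show that they differ. It became -0.67 (adjusted p = 0.0346) without Mb1Cre day 0 replicate 2.

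**Figure D3:**
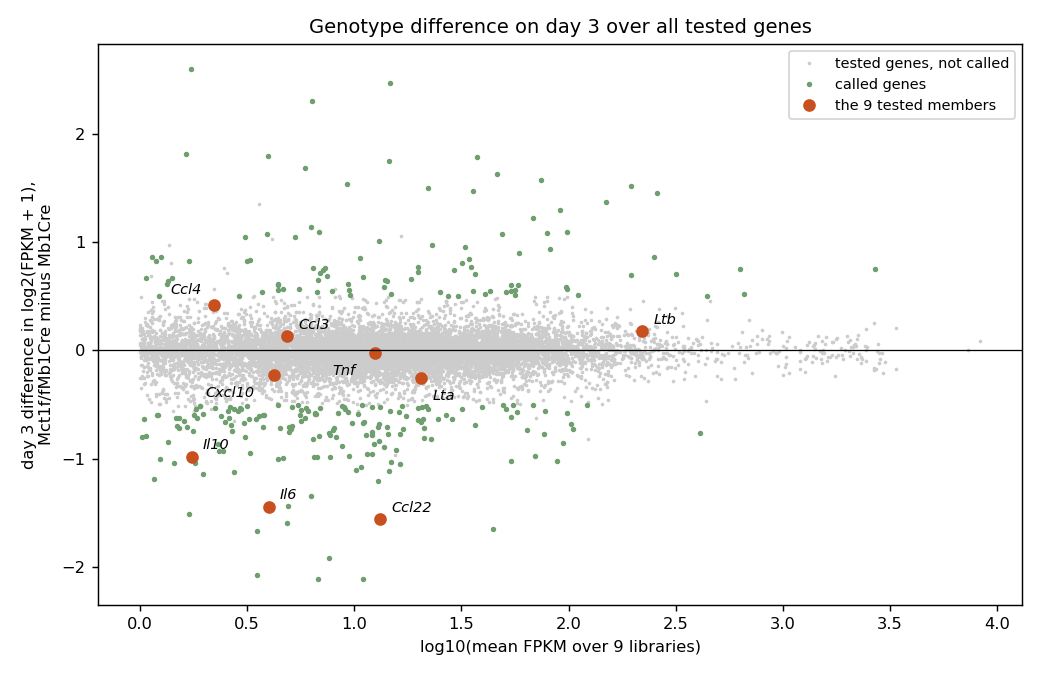
Day 3 difference between Mct1f/fMb1Cre and Mb1Cre in log2(FPKM + 1) (y axis) against log10 of the mean FPKM (x axis) for all 10823 tested genes, with called genes in green and the 9 tested cytokine and chemokine genes in orange. Ccl22, Il6 and Il10 lie among the lowest called genes, while the other 6 members sit in or near the grey band of genes that were not called.

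The tested receptor genes for these ligands fell with stimulation in both genotypes. Of 10 listed (Il6ra, Il6st, Il10ra, Il10rb, Tnfrsf1a, Tnfrsf1b, Ltbr, Ccr1, Ccr4 and Cxcr3), 9 were tested, and all 9 were called lower on day 3 in Mb1Cre and in Mct1f/fMb1Cre, beside 33.0% and 33.2% of all genes. The median differences were -2.62 and -2.44, beside -0.12 and -0.14 over all genes. In Mb1Cre the TNF receptor gene Tnfrsf1a went from 15.72 and 18.84 FPKM to 0.21 and 0.45, and the interleukin-10 receptor gene Il10ra from 85.97 and 90.94 to 11.97 and 11.04. In Mct1f/fMb1Cre Ccr1, a CCL3 receptor gene, went from 8.29 and 6.83 FPKM to 0.23, 0.14 and 0.16. Markers of myeloid and T cells, which carry several of these receptors, fell over the same days, and their part in the falls was not tested. Between genotypes limma called 0 of the 9 on day 3 and 0 on day 0, and at an unadjusted p under 0.05 there were 3 and 1. With 2.42% and 0.277% of all genes called in either direction, these counts do not set the receptor genes apart.

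Other cytokine genes were mostly below the minimum mean of 1 FPKM or mixed in direction. Of 30 listed, 27 were in the table and 13 were tested, of which 4 were called higher and 6 lower after stimulation in Mb1Cre, and 4 and 7 in Mct1f/fMb1Cre. Over all genes 24.8% were called higher and 33.0% lower in Mb1Cre, and 23.4% and 33.2% in Mct1f/fMb1Cre. Vegfa, the gene of the vascular growth factor, rose from 2.62 and 1.39 FPKM to 24.15 and 24.68 in Mb1Cre. Ebi3, a chain of interleukin-27 and interleukin-35, rose from 26.06 and 25.77 to 227.42 and 214.20, while the myeloid cytokine genes Il1b and Il18 fell by 3.42 and by 3.31 on the log2 scale in Mb1Cre. On day 3, limma called 4 of the 13 lower in Mct1f/fMb1Cre and 0 higher, beside 1.53% and 0.887% of all genes. At an unadjusted p under 0.05 there were 6 in either direction.

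Those 4 were Tnfsf9, Il12a, Ebi3 and Csf1. Ebi3 reached 127.92, 137.54 and 133.70 FPKM in Mct1f/fMb1Cre, below both Mb1Cre libraries (difference -0.73), and its interaction was -0.70 (limma, adjusted p = 6.19e-04). Il12a, whose product pairs with that of Ebi3 in interleukin-35, fell with stimulation to 5.63 and 6.18 FPKM in Mb1Cre and to 3.51, 3.47 and 2.40 in Mct1f/fMb1Cre (difference -0.75, interaction -0.70). Tnfsf9, the gene of the costimulatory ligand 4-1BBL, was 9.43 and 10.84 against 5.58, 5.40 and 5.78 FPKM (difference -0.75, interaction -0.64). Csf1, the macrophage growth factor gene, differed by -0.57. The genotypes overlapped in none of these 4 genes on day 3.

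Of 17 other chemokine genes, 15 were in the table and 7 were tested. In Mb1Cre 0 were called higher and 5 lower on day 3, beside 24.8% and 33.0% of all genes. In Mct1f/fMb1Cre the counts were 0 and 6, beside 23.4% and 33.2%. The myeloid chemokine Ccl6 fell by 3.75 in Mb1Cre and by 4.89 in Mct1f/fMb1Cre, and the difference for Ccl9 was -2.90 and -2.83. On day 3 Ccl6 and Ccl5 were called lower in Mct1f/fMb1Cre and 0 of the 7 higher, beside 1.53% and 0.887% of all genes. Ccl6 was low by then, at 2.10 and 2.07 FPKM in Mb1Cre and a spread of 1.59, 0.47 and 0.43 in Mct1f/fMb1Cre. Its difference was -0.81, and its interaction was not called (limma, adjusted p = 0.0546). Ccl5, which encodes RANTES, was 77.09 and 73.44 FPKM in Mb1Cre and 47.29, 52.72 and 52.54 in Mct1f/fMb1Cre, a difference of -0.56, and its interaction was -0.69 (limma, adjusted p = 0.00279).

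**Figure D4:**
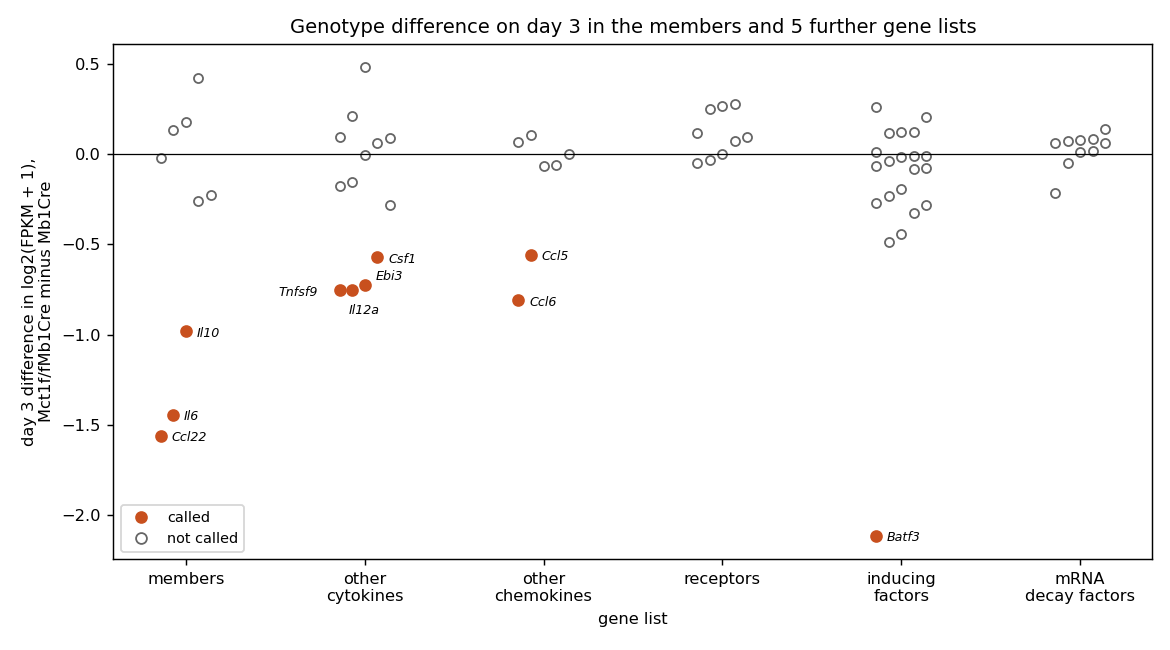
Day 3 difference between Mct1f/fMb1Cre and Mb1Cre in log2(FPKM + 1) (y axis) for each tested gene of the 10 cytokine and chemokine genes (members) and of 5 further lists (x axis); filled points are called. The called points all lie below 0, with 3 among the members, 4 among the other cytokines, 2 among the other chemokines, Batf3 alone among the inducing factors, and 0 among the receptors and the mRNA decay factors.

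Transcription factors that act on cytokine genes were measured as well. Of 21 listed, 7 were called higher and 7 lower in Mb1Cre after stimulation, beside 24.8% and 33.0% of all genes. In Mct1f/fMb1Cre the counts were 5 and 6, beside 23.4% and 33.2%. Nfil3 and the AP-1 family member Batf rose, in Mb1Cre from 1.60 and 2.52 to 167.58 and 172.37 FPKM and from 13.21 and 14.05 to 180.54 and 165.25. The AP-1 subunit gene Fos fell by 4.47 and Maf, a factor that acts on Il10, fell by 2.84 in Mb1Cre. On day 3 a single factor of the 21 was called between genotypes, beside 1.53% of all genes called lower and 0.887% higher. The called factor was Batf3, an AP-1 family member. It was 28.84 and 25.16 FPKM in Mb1Cre and 5.44, 6.56 and 4.51 in Mct1f/fMb1Cre. The difference was -2.12 (limma, adjusted p = 1.34e-05), with an interaction of -2.17. At an unadjusted p under 0.05 there were 11 factors, in either direction. Irf4 (-0.49) and Rel (-0.44) were lower but short of the 0.5 limit (limma, adjusted p = 5.54e-05 and 1.45e-04). Nfatc1 was higher by 0.26 (limma, adjusted p = 0.00233), also short of it.

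Genes of mRNA decay factors were called with stimulation but not between genotypes, where few of all genes were called. Of 10 tested, 1 was called higher and 5 lower after stimulation in Mb1Cre, beside 24.8% and 33.0% of all genes. In Mct1f/fMb1Cre the counts were 2 and 5, beside 23.4% and 33.2%. Zfp36, the gene of tristetraprolin, fell by 2.49 and by 2.59 on the log2 scale, and its relative Zfp36l2 fell by 3.46 and by 2.90. Hnrnpd, an AU-rich element binding protein, rose by 0.71 and by 0.62, and Khsrp, another, rose by 0.55 in Mct1f/fMb1Cre. Limma called 0 of the 10 between genotypes on day 3 and 0 on day 0, with 1 and 2 at an unadjusted p under 0.05. Since 2.42% and 0.277% of all genes were called in either direction, these counts do not set the decay factors apart.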

How the data were processed

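RNA of 9 splenic B cell libraries was sequenced and processed at the BGISEQ institute. The deposited table holds FPKM per gene (17596 genes, 2 decimals), made by the authors. The submitters' processing notes name Bowtie2 and GRCm38 (mm10) with no role or version, and the counter is not given in the sources used here. FPKM keep no read totals, so counting error cannot be given.

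Values were used as deposited, as log2(FPKM + 1). The 10823 genes averaging 1 FPKM or more across libraries were fitted with limma 3.58.1 in R 4.3.3, with 4 group means, moderated variances with a trend and Benjamini-Hochberg adjustment over all genes. A difference in this scale understates the change of low genes. The contrasts were day 3 against day 0 in each genotype, genotype on each day, and their interaction. The script was tested on simulated data. The members and lists were chosen with earlier results of these data known. All 10 members are described. A further receptor gene is not reported here. From each further list, the 2 called genes that changed most in either direction were named per contrast, and up to 3 in the interaction, with Slc16a1 as the targeted gene. Csf1 and Ebi3 on day 3, Ccr4, Lyz2, Adgre1, Gzma, Irf4, Rel, Nfatc1 and Ddx3y were named after their values were seen. Alternatives covered pseudocount, filter, scaling, design, limit and leaving out each library. Gene positions and 3′ UTRs came from GENCODE vM21 and upstream sequences from RefSeq (GRCm38.p6). Figures were drawn with matplotlib 3.10.9 in Python 3.11.15.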

Additional observations from a re-analysis of the deposited data

Results flagged for a closer look

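The difference between genotypes was not the same on day 0 and on day 3 for 3 of the 9 tested genes, by the interaction test in limma. The difference on day 3 minus that on day 0 was -1.77 on the log2(FPKM + 1) scale for Ccl22 (adjusted p = 2.98e-04), -1.56 for Il6 (adjusted p = 1.57e-04) and -1.04 for Il10 (adjusted p = 0.00274). In each gene both Mb1Cre libraries of day 3 were above all 3 Mct1f/fMb1Cre libraries. Over the alternatives tried these values ran from -1.98 to -1.41, from -2.36 to -0.98 and from -1.55 to -0.51, with adjusted p no higher than 0.0103, 0.00607 and 0.0185.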

How the results depend on the processing

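Of 956 comparisons of a member's difference under an alternative with the value as reported, 915 kept direction and side of the threshold, 18 newly passed it, 11 no longer passed it and 12 changed sign. With a minimum mean of 5 FPKM, which leaves out Il6, Il10, Ccl3, Ccl4 and Cxcl10 by construction, the members called fell to 3 in either activation contrast, 1 on day 3 and 1 in the interaction. Without a limit on the log2 difference 5 were called on day 3, Lta and Ltb being added. Il6 and Ccl22 were called on day 3 under every alternative that tested them. Il10 fell short with a pseudocount of 5 (-0.49) and with a limit of 1. Ccl3 in Mb1Cre fell short with a pseudocount of 5 (-0.29), median-of-ratios (-0.34) and quantile normalization (-0.23). Cxcl10 in Mct1f/fMb1Cre newly passed under 9 alternatives. Signs changed only in differences that were not called: Tnf from day 0 to day 3 in Mb1Cre with median-of-ratios (0.067) and quantile normalization (0.044), and Ccl4 with quantile normalization in Mb1Cre (0.033) and Mct1f/fMb1Cre (0.144). Leaving out each library gave -0.087 to 0.041 for Tnf and day 3 genotype, -0.031 to 0.162 for Tnf, -0.189 to 0.040 for Lta and -0.0046 to 0.417 for Ccl22 on day 0, and -0.185 to 0.0079 for Tnf and -0.022 to 0.229 for Ccl4 in the interaction. The cause was not tested.

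Same-numbered libraries did not deviate together (r from -0.122 to 0.0642), so the replicate numbers were not taken to pair them. With the replicate number as a block, 7, 7, 3, 0 and 3 members were called in the 2 activation contrasts, day 3, day 0 and the interaction. With the day 0 Mb1Cre numbers crossed, chosen after seeing the r of -0.122, the counts were again 7, 7, 3, 0 and 3.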

Other observations

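Among listed cytokine genes under the minimum mean of 1 FPKM, 14 could be fitted with no filter on low values, a setting chosen after seeing the data. On day 3, 2 of the 14 were called lower in Mct1f/fMb1Cre and 0 higher, where this fit called 1.05% of all 17596 genes lower and 0.477% higher. Lif, the gene of leukaemia inhibitory factor, an interleukin-6 family cytokine, was 2.13 and 2.62 FPKM in Mb1Cre and 0.81, 0.89 and 0.62 in Mct1f/fMb1Cre (limma, difference -0.93, adjusted p = 0.0100). Tnfsf8, the gene of CD30 ligand, was 2.08 and 1.93 against 0.82, 0.77 and 0.80 (difference -0.74, adjusted p = 0.00375). Of 8 chemokine genes under the minimum, limma called 0 between genotypes on day 3, with 3 at an unadjusted p under 0.05. After stimulation 4 of these 8 were called higher in Mct1f/fMb1Cre, Ccl2, Ccl7, Cxcl1 and Cxcl2, and 2 in Mb1Cre, Ccl2 and Ccl7, beside 15% and 16.2% of all genes in the same fit. The difference between genotypes in these rises was called for 0 of the 8, with 4 at an unadjusted p under 0.05. These genes were named after their values were seen.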
